A study of Mus musculus with 8 samples.

Results

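The genes of the whey proteins and of the milk fat globule were followed through 4 lists of BMAL1 binding sites. These are 7 genes, Wap, Lalba, Ltf, Xdh, Btn1a1, Mfge8 and Muc1, of 21000 protein coding genes with a curated RefSeq transcript on mouse assembly GRCm38. A peak was counted for a member when the transcription start site nearest to the peak's centre belonged to that gene, or when the centre lay within the gene. By this rule 25 of 211109 peaks were peaks of the 7 genes.

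HC11, a line of epithelial cells from the mouse mammary gland, was studied in 2 states, differentiated (DIFF1 and DIFF2) and undifferentiated (UNDIFF1 and UNDIFF2), with 4 independent ChIP experiments in all, each set against its own input DNA. DIFF cultures were kept for 48 h in medium with 10% serum and insulin but no EGF and then had 96 h of lactogens, which were 0.1 µM dexamethasone with 5 µg/mL each of insulin and prolactin. UNDIFF cultures had the same 48 h without EGF, in 10% serum and insulin, and no dexamethasone or prolactin. All were fixed with 1% formaldehyde, and BMAL1 was precipitated with 1 antibody. HC11 is a single cell line, and the lists hold binding sites only, so expression of the 7 genes was not measured here.

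BMAL1 is the clock transcription factor that pairs with CLOCK and binds the E-box, best known with the letters CACGTG. Whey is the soluble part of milk, and its proteins are secreted by the same cells that release milk fat as globules wrapped in apical membrane. Prolactin and glucocorticoid, acting in part through STAT5, switch on many of these genes late in pregnancy. WAP, whey acidic protein, is a major whey protein of rodents, alpha-lactalbumin (Lalba) is the regulatory subunit of lactose synthase, and lactoferrin (Ltf) binds iron. Xanthine dehydrogenase (Xdh), an enzyme of purine breakdown, and butyrophilin (Btn1a1), a membrane protein that binds it, take part in the release of the globule. Lactadherin (Mfge8) and the mucin MUC1 are further proteins of the globule membrane.

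DIFF2 stood apart from the other lists before any gene was looked at. It held 185417 peaks, against 13683 in DIFF1, 6534 in UNDIFF1 and 5475 in UNDIFF2. Its lowest findPeaks score, a value in tags that the caller gives each peak, was 14, against 23 to 24 in the other lists. The tag totals implied by the deposited tags and normalized tags were 35270000 to 80370000, lowest in DIFF2. In DIFF1 the median of the ChIP tags, 16.9, lay below the median score, 26, so the tags may be scaled to the input. The implied totals may thus not be the depth of each ChIP library. The centre of 86.0% of its peaks lay in soft-masked sequence, the repeats of the reference genome, against 26.6% in DIFF1, 21.4% in UNDIFF1 and 26.3% in UNDIFF2. Results that rest on DIFF2 are therefore given with and without it.

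Of the 25 peaks, 6 are shown as letters, on the + strand of GRCm38, with every match to CANNTG, the general E-box, in capitals. The first 2 are the DIFF1 peaks of the 7 genes, both upstream of Xdh. The other 4, cut to their central 300 bases, are DIFF2 peaks: the peak of Xdh with the highest fold over input, the highest-scoring peak of Lalba and of Ltf, and the lone peak of Wap.
Xdh, DIFF1, 44.0 kb upstream, chr17:73994110-73994324, 215 bases: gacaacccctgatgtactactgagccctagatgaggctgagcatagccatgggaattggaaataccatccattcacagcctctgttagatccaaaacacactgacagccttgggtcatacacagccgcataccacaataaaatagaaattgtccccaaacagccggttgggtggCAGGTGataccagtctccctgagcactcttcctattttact
Xdh, DIFF1, 14.5 kb upstream, chr17:73964574-73964788, 215 bases: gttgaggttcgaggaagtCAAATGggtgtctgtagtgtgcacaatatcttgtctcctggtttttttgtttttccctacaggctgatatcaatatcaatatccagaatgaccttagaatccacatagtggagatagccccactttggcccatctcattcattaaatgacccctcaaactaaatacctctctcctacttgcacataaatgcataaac
Xdh, DIFF2, intron 1, chr17:73947496-73947795, 300 bases: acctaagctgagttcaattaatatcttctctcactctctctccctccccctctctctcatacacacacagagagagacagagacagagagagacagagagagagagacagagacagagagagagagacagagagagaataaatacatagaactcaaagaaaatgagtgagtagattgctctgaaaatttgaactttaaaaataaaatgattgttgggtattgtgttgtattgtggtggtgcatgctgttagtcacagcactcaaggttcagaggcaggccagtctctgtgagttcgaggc
Lalba, DIFF2, 6.66 kb past the gene's end, chr15:98473590-98473889, 300 bases: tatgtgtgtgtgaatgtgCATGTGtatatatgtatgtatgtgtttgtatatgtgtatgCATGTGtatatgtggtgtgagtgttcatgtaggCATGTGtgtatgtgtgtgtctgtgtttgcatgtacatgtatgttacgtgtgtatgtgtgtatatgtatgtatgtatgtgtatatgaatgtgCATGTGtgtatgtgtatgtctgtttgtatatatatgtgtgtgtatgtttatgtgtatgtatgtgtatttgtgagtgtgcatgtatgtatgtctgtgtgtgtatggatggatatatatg
Ltf, DIFF2, 4.71 kb upstream, chr9:111014430-111014729, 300 bases: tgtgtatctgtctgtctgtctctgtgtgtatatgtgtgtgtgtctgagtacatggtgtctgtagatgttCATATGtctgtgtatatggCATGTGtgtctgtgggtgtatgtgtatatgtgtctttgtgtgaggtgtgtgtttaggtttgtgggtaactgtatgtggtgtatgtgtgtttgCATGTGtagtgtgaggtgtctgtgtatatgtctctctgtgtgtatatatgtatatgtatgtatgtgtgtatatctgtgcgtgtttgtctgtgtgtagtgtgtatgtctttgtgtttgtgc
Wap, DIFF2, 2.58 kb past the gene's end, chr11:6632751-6633050, 300 bases: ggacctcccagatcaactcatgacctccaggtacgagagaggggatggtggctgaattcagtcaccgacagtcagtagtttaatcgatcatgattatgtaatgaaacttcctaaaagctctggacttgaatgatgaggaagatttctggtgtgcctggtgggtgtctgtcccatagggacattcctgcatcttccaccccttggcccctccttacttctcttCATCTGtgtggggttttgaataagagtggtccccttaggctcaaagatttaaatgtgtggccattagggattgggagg
None of the 6 holds CACGTG. The Lalba and Ltf peaks are rich in short stretches of alternating T and G, broken by other letters. The Xdh intron peak holds a stretch rich in alternating G and A. The Wap peak and the DIFF1 peaks show no such stretches over their length.

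The first question was how many binding sites each culture had at these genes. DIFF1 had 2 peaks and DIFF2 had 23, against 0 in UNDIFF1 and 0 in UNDIFF2. The DIFF cultures lay above the UNDIFF cultures without overlap, but DIFF2 was farther from DIFF1 than DIFF1 was from the UNDIFF cultures. On the scale log2(peaks + 1) the DIFF mean was 3.08 ± 2.12 and the UNDIFF mean 0.00 ± 0.00 (SD, n = 2 each), a difference of 3.08 with p = 0.33 in a two-sided exact permutation test. With 2 cultures in each state 0.33 is the smallest p that this test allows.

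The longer DIFF lists would hold more peaks at any gene, so the counts were set against the length of each list. The 7 genes took 1.46 of every 10000 peaks in DIFF1 (95% Wilson interval 0.401 to 5.33) and 1.24 in DIFF2 (0.827 to 1.86). In UNDIFF1 they took 0 of 6534 peaks, and in UNDIFF2 0 of 5475. By the limit of 3 counts over the list these allow shares of up to 4.59 and 5.48 per 10000, and the upper ends of their 95% Wilson intervals are 5.88 and 7.01. Both DIFF shares lay below all of these limits, so a difference in share between the states was not detectable at this depth. The means were 1.35 ± 0.156 per 10000 in DIFF and 0.00 ± 0.00 in UNDIFF (SD, n = 2 each; exact permutation p = 0.33, two-sided). These intervals and limits cover counting error only.

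The counts were also close to what the length of the loci gives. Sequence assigned to the 7 genes came to 311.6 kb, and within it DIFF1 had 0.642 peaks per 100 kb, beside 0.517 over the whole genome. DIFF2 had 7.38 peaks per 100 kb there, beside 7.00 over the genome. At the genome-wide rate of each list the same sequence would hold 1.61 peaks in DIFF1 and 21.8 in DIFF2, against 0.769 in UNDIFF1 and 0.644 in UNDIFF2. A count of 0 in an UNDIFF list is thus within 1 peak of its genome-wide rate.

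**Figure D1:**
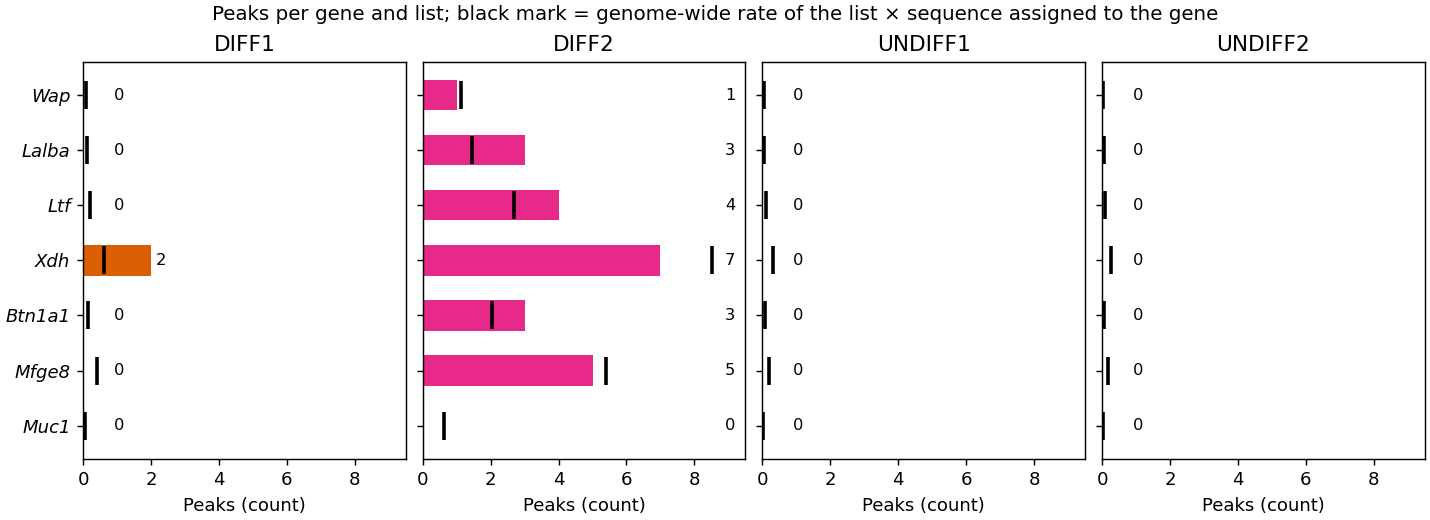
Peaks (count, horizontal axis) at each of the 7 genes in DIFF1, DIFF2, UNDIFF1 and UNDIFF2, with the count printed beside each bar. The black mark is the genome-wide rate of the list times the sequence assigned to the gene, and in DIFF2 the bars pass it at Lalba (3 peaks), Ltf (4) and Btn1a1 (3) and stop short of it at Wap (1), Xdh (7), Mfge8 (5) and Muc1 (0).

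By gene, 1 of the 7 had a peak in DIFF1 and 6 of the 7 in DIFF2, against 0 of the 7 in UNDIFF1 and 0 in UNDIFF2. Among all 21000 protein coding genes the same rule gave 26.5% in DIFF1 and 84.1% in DIFF2, against 14.1% in UNDIFF1 and 9.52% in UNDIFF2. Xdh was the member with peaks in both DIFF lists and in neither UNDIFF list, 1 of 7 where 14.2% of all genes had this pattern. Wap, Lalba, Ltf, Btn1a1 and Mfge8 had peaks in DIFF2 alone, 5 of 7 where 52% of all genes did. Muc1 had no peak in any list, 1 of 7 where 14.7% of all genes had none. These shares are near those of all genes, as far as 7 genes can show. Without DIFF2, the lists left Xdh as the only member with a peak.

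The score minimum of DIFF2 was lower than that of the other lists. At a score of 24 or more in every list, DIFF2 kept 5 of its 23 member peaks, 3 at Xdh, 1 at Lalba and 1 at Mfge8, and DIFF1 kept both of its own. So 3 of 7 members had a DIFF2 peak of that score, beside 46.9% of all genes. The share of member peaks that reached it, 21.7% (95% Wilson interval 9.66 to 41.9%), was that of the whole DIFF2 list, 21.7%.

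The positions of the 25 peaks were set against those of the whole lists. None lay in a promoter (the 1 kb before a start site and the 100 bp after it), where 0.775% of all DIFF1 peaks and 0.728% of all DIFF2 peaks did. None touched a curated exon, where 3.92% of DIFF1 and 1.45% of DIFF2 peaks did, so at these shares fewer than 1 of the 25 would be in either place. In DIFF2, 16 of the 23 were intergenic and 7 intronic, where 63.2% and 35.6% of the whole list were, and both DIFF1 peaks were intergenic. Upstream of the start site lay 14 of the 25, and 4 lay past the gene's end. Within 10 kb of the start site were 9 of the 23 DIFF2 member peaks (39.1%, 95% Wilson interval 22.2 to 59.2%), beside 16.4% of that list, and 0 of 2 in DIFF1, beside 15.9%. The distance to the start site is part of how peaks were assigned, and the sequence assigned to the members was shorter (median 28.9 kb) than that of all genes (49.6 kb), so this is given as a description.

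**Figure D2:**
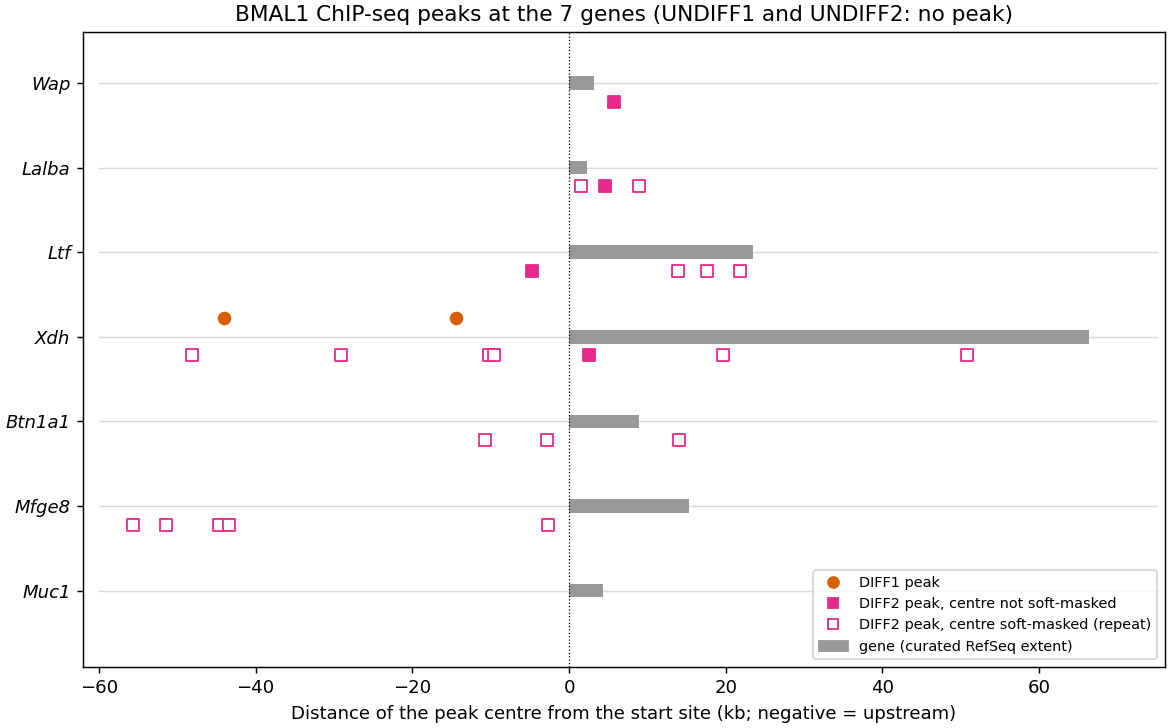
Position of each peak centre relative to the start site of its gene (kb, horizontal axis, negative upstream), for DIFF1 (circles) and DIFF2 (squares, open where the centre is soft-masked). Grey bars are the genes, UNDIFF1 and UNDIFF2 had no peak to draw, and Xdh is the gene with symbols of both lists.

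Wap (gene 22373, chr11:6635483-6638649, minus strand, 4 exons) had 0 peaks in DIFF1 and 1 in DIFF2, against 0 in both UNDIFF lists. The DIFF2 peak, chr11:6632733-6633069, lay 5.75 kb downstream of the start site and 2.58 kb past the end of the gene. It had 26.0 ChIP tags over 10.3 input tags, a score of 17 and a fold over input of 2.51. That fold was lower than in all but 2.33% of the DIFF2 list, and the score was at the 31.9 percentile. Its centre was not soft-masked, and at a fold of at least 4 Wap had no peak in any list.

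Lalba (gene 16770, chr15:98480400-98482683, minus strand, 4 exons) had 0 peaks in DIFF1 and 3 in DIFF2, against 0 in both UNDIFF lists. A peak in intron 3, the last intron, was the member peak closest to any start site, at 1.54 kb, with 26.5 ChIP tags over 6.2 input tags, a score of 19.5 and a fold of 4.27. Another lay 2.31 kb past the gene's end with a score of 19.5 and a fold of 3.31. The third, 6.66 kb past the gene's end, had the highest score of all 23 DIFF2 member peaks, 35, with 45.5 ChIP tags over 3.1 input tags, a fold of 14.7 and a deposited p of 5.51e-36. Its score and tags stood at the 97.6 percentile of the list. Of its neighbouring base pairs 53.6% read TG or GT, which puts it at the 98.8 percentile of the list, where the median is 16.1%. This was the only member peak among the 5475 highest-scoring peaks of each list. Per length, Lalba had 14.6 DIFF2 peaks per 100 kb, beside 10.3 over chromosome 15.

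Ltf (gene 17002, chr9:111019292-111042766, plus strand, 17 exons) had 0 peaks in DIFF1 and 4 in DIFF2, against 0 in both UNDIFF lists. The peak 4.71 kb upstream had 31.0 ChIP tags over 1.0 input tag, a score of 23.5 and a fold of 29.96, at the 95.8 percentile of folds. Its centre was not soft-masked, though 91.7% of its length was. The other peaks lay in introns 13, 14 and 16, with scores of 18.5, 19.5 and 22 and folds of 9.87, 3.92 and 2.84. The intron 16 peak was nearest to the start site of Ccrl2, the gene downstream, and was counted because it lies inside Ltf. In the peaks from upstream to intron 16 the share of TG or GT steps was 52.1, 42.3, 35.1 and 42.3%, all at or above the 94.2 percentile of the DIFF2 list, a feature picked out after the letters were seen. DIFF2 had 10.45 peaks per 100 kb at Ltf, beside 5.59 over chromosome 9.

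Xdh (gene 22436, chr17:73883895-73950196, minus strand, 36 exons) had 2 peaks in DIFF1 and 7 in DIFF2, against 0 in UNDIFF1 and 0 in UNDIFF2. It also has the most sequence assigned to it of the 7 genes, 121.5 kb, beside a median of 49.6 kb over all protein coding genes. The ChIP and input tags are given as deposited and may be scaled, so they are not compared between lists. In DIFF1 the peak 14.5 kb upstream had 15.9 ChIP tags over 2.0 input tags, a score of 25, a fold of 7.95 and a deposited p of 3.87e-09. The peak 44.0 kb upstream had 16.9 ChIP tags over 4.0 input tags, a score of 25.5, a fold of 4.22 and a p of 4.89e-06. Both scores lay below the DIFF1 median of 26, and neither centre was soft-masked. DIFF1 had 1.65 peaks per 100 kb at Xdh, beside 0.705 over chromosome 17.

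In DIFF2 the Xdh peaks ran from 48.1 kb upstream to intron 26 of 35. Those upstream lay at 48.1, 29.1, 10.2 and 9.62 kb, with scores of 27.5, 16.5, 24.5 and 24 and folds of 3.68, 2.70, 4.67 and 2.67. The centres of the last pair were 0.628 kb apart, and all 4 peaks were soft-masked over their whole length. Within the gene, peaks lay in introns 1, 6 and 26, with scores of 15, 18 and 18. The intron 1 peak, 2.55 kb from the start site, had the highest fold of all member peaks, 104, at the 99.4 percentile, but 0.2 input tags under its 21.5 ChIP tags, and its score was at the 12.4 percentile. Folds in introns 6 and 26 were 7.38 and 10.2. DIFF2 had 5.76 peaks per 100 kb at Xdh, below the 8.20 over chromosome 17.

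The peaks of DIFF1 and DIFF2 at Xdh did not share a site. The gap between the DIFF1 peak at 44.0 kb and the nearest DIFF2 peak was 3820 bp, and that between the DIFF1 peak at 14.5 kb and the nearest DIFF2 peak 3965 bp. No member peak of any list overlapped a peak of another list by 1 bp or more, and no centre lay within 1 kb of a centre of another list. Xdh is therefore common to the DIFF lists as a gene and not as a position. The share of all peaks that overlap a peak of another list was not computed. The lack of overlap is thus not shown to be particular to these genes. Only 1 of the 7 DIFF2 peaks of Xdh, that in intron 1, had its centre outside soft-masked sequence, and 65.9% of that peak's length was still soft-masked.

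Btn1a1 (gene 12231, chr13:23456992-23465901, minus strand, 8 exons) had 0 peaks in DIFF1 and 3 in DIFF2, against 0 in both UNDIFF lists. They lay 10.7 kb and 2.79 kb upstream and 5.13 kb past the gene's end, with scores of 17.5, 17.5 and 14.5. Folds over input were 4.47, 2.90 and 4.16. All 3 scores were under the DIFF2 median of 19 and all 3 centres were soft-masked. With predicted RefSeq transcripts added, none of the 3 was assigned to Btn1a1. In DIFF1 a peak lay 17.8 kb downstream of the start site, where the nearest curated start site was that of the noncoding gene C230035I16Rik, and with start sites of protein coding genes alone it became a peak of Btn1a1.

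Mfge8 (gene 17304, chr7:79133768-79149060, minus strand, 9 exons) had 0 peaks in DIFF1 and 5 in DIFF2, against 0 in both UNDIFF lists. All 5 were upstream and soft-masked at the centre. A peak at 2.70 kb had a score of 19 and a fold of 3.44, and the other 4 lay together between 43.4 and 55.6 kb upstream, with scores of 15 to 24 and folds of 2.59 to 5.89. Of these, the peak at 44.7 kb had the highest score, 24, and a fold of 4.68. Outside DIFF2, the nearest peak of DIFF1 lay 461.5 kb away, and those of UNDIFF1 and UNDIFF2 6565 kb and 4235 kb away. The whole chromosome was poor in peaks of these lists, so these distances are not shown to be particular to the locus. The chromosome held 0.157 DIFF1 peaks per 100 kb, beside 0.517 over the genome. UNDIFF1 and UNDIFF2 each had 0.0374 there, beside 0.247 and 0.207 over the genome.

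Muc1 (gene 17829, chr3:89229056-89233381, plus strand, 7 exons) had 0 peaks in DIFF1 and 0 in DIFF2, against 0 in both UNDIFF lists. It has the least assigned sequence of the 7, 8.91 kb, less than in all but 4.61% of protein coding genes. The start site of Mir92b lies 1.86 kb upstream and that of Trim46 16.0 kb downstream. At the genome-wide rate of DIFF2 this sequence would hold 0.624 peaks. Peaks were not scarce around it, with 14 DIFF2 peaks and 1 DIFF1 peak within 50 kb of its start site, each assigned to another gene, against 0 in both UNDIFF lists. The nearest DIFF2 peak lay 7.01 kb upstream, nearer to Mir92b. With start sites of protein coding genes only, Muc1 still had 0 peaks in every list.

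How far each start site lay from the nearest peak of each list, whatever gene that peak was assigned to, does not depend on the assignment. Over the 7 genes the distance ran from 14.5 to 461.5 kb in DIFF1 (median 24.4 kb) and from 1.54 to 7.01 kb in DIFF2 (median 2.79 kb). In UNDIFF1 it ran from 197 to 6565 kb (median 608 kb), and in UNDIFF2 from 29.9 to 4235 kb (median 392 kb). The mean spacing of peaks over the genome was 193.5 kb in DIFF1, 14.3 kb in DIFF2, 405 kb in UNDIFF1 and 484 kb in UNDIFF2. Spacing is the gap from peak to peak, which is longer than a distance to the nearest peak on either side. The distances are therefore not measured against it, and the like distance for all genes was not computed. Within 50 kb of a member's start site were 6 DIFF1 peaks and 59 DIFF2 peaks, against 0 UNDIFF1 peaks and 1 UNDIFF2 peak. That UNDIFF2 peak lay 29.9 kb upstream of Btn1a1, nearest to Btn2a2. Within 1000 kb the counts were 67 and 1052 in DIFF1 and DIFF2, against 14 and 14 in UNDIFF1 and UNDIFF2. These counts are not adjusted for the length of the lists. Over the genome DIFF1 held 0.517 and DIFF2 7.00 peaks per 100 kb, against 0.247 in UNDIFF1 and 0.207 in UNDIFF2. Counts at these rates were not worked out for the windows.

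**Figure D3:**
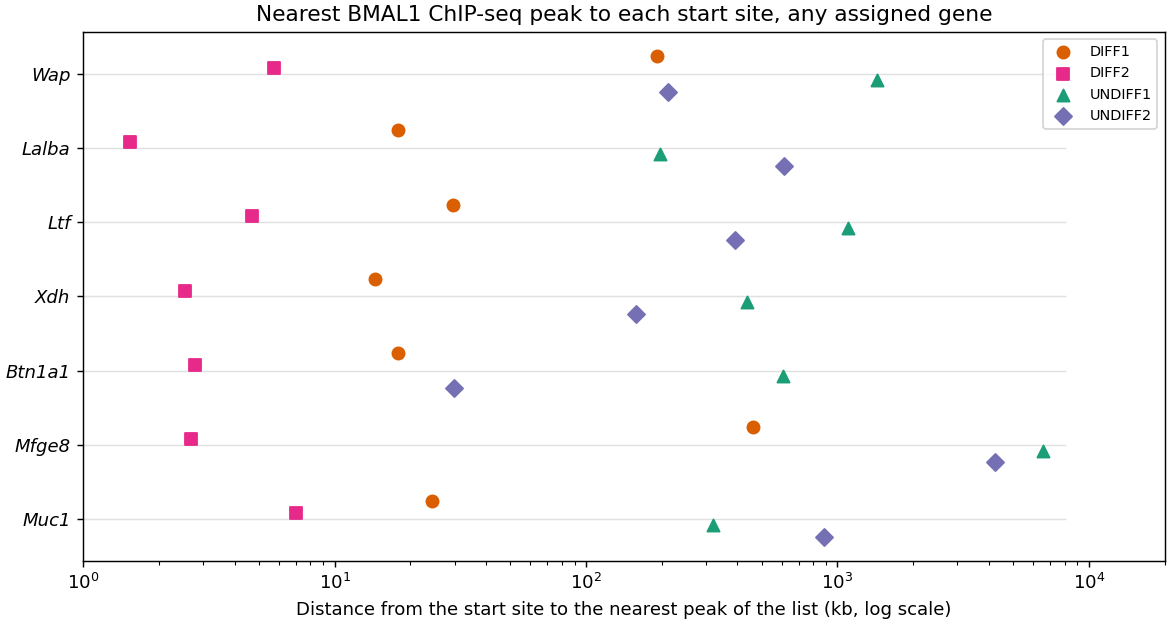
Distance (kb, log scale, horizontal axis) from the start site of each gene to the nearest peak of DIFF1, DIFF2, UNDIFF1 and UNDIFF2, whichever gene that peak was assigned to. DIFF2 is nearest at all 7 genes (1.54 to 7.01 kb), and the UNDIFF lists reach 6565 kb at Mfge8.

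The strength of the member peaks was set against that of their lists. The median fold over input of the 23 DIFF2 member peaks was 4.16, beside 5.15 for the whole list. Above the list's median fold were 7 of the 23 (30.4%, 95% Wilson interval 15.6 to 50.9%), beside 49.9% of the list. Their median score was 18.5, beside 19, and 10 of the 23 were above it. The 2 DIFF1 peaks had a median fold of 6.08, beside 4.31, and a median score of 25.2, beside 26. Soft-masked centres were found in 19 of 23 DIFF2 member peaks (82.6%, 95% Wilson interval 62.9 to 93.0%), beside 86.0% of the list, and in 0 of 2 in DIFF1. The median clonal fold, the caller's measure of repeated tags, was 1.31 in the DIFF2 member peaks and 1.24 in that list, against 1.08 in the DIFF1 member peaks and 1.05 in that list, and its part in these counts was not tested.

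**Figure D4:**
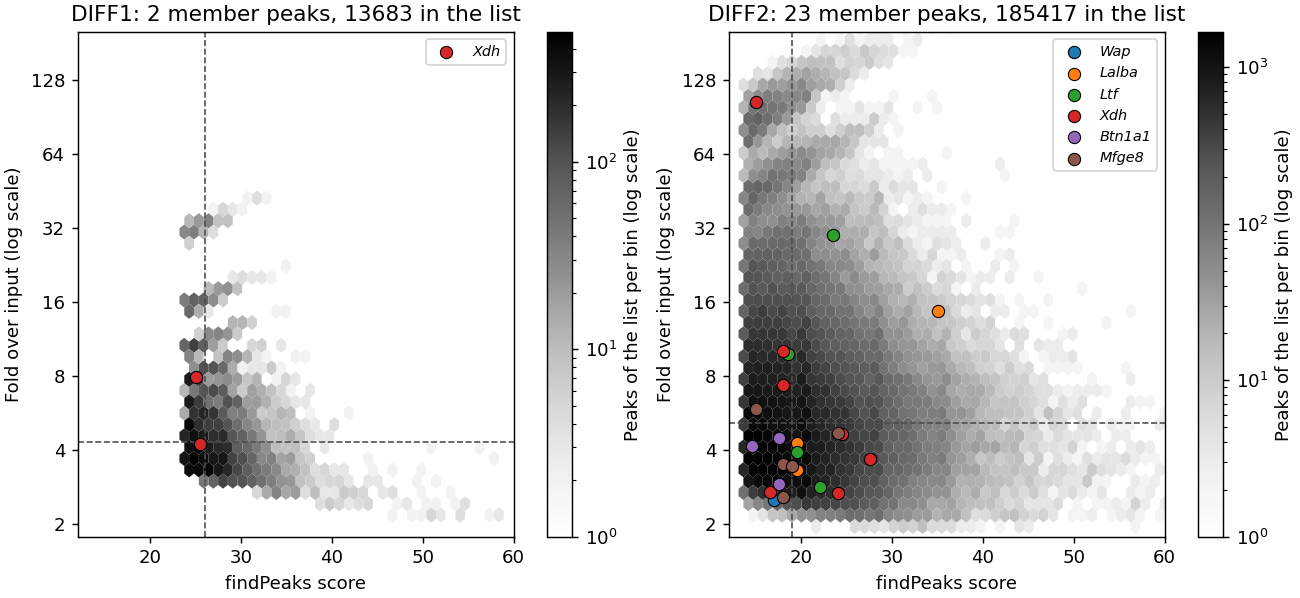
Fold over input (log scale, vertical axis) against findPeaks score (horizontal axis) for the member peaks (coloured points) and all peaks of DIFF1 and DIFF2 (grey, number per bin). Dashed lines are the medians of the list, and the Lalba peak of score 35 and the Xdh peak of fold 104 stand out from the other member peaks.

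The letters CACGTG were in 0 of the 25 member peaks. The variant CACGTT, or AACGTG on the other strand, was also in 0 of the 25. Over the whole lists CACGTG was in 2.01% of DIFF1 and 2.65% of DIFF2 peaks, against 2.13% of UNDIFF1 and 1.46% of UNDIFF2 peaks, so at these shares fewer than 1 of the 25 peaks would hold it. The general form CANNTG, which reads the same on both strands and includes CACGTG, was in 2 of 2 DIFF1 and 20 of 23 DIFF2 member peaks, beside 72.5% and 86.3% of those lists. The letters TTCNNNGAA, a form bound by STAT5 and also the same on both strands, were in 1 of the 25, the DIFF1 peak 14.5 kb upstream of Xdh, as TTCGAGGAA starting at position 73964581 of chromosome 17. They were in 7.77% of all DIFF1 peaks and 10.3% of all DIFF2 peaks. RefSeq promoters of GRCm38.p6, 250 bases before to 50 after the start, were matched for 5 members (Wap, Lalba, Ltf, Mfge8 and Muc1), and CACGTG was in 0 of the 5, where 7.15% of all 32851 such promoters hold it.

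Other genes of milk secretion were counted by the same rule. Of 5 other whey protein genes, 4 had a DIFF2 peak and none a peak in DIFF1, UNDIFF1 or UNDIFF2, and Pigr, the receptor that carries immunoglobulin A into milk, had none at all. Of 7 other milk fat globule genes all had a DIFF2 peak, and Abcg2, a membrane transporter of milk, was the one with peaks in every list (1 in DIFF1 and 21 in DIFF2, against 3 in UNDIFF1 and 3 in UNDIFF2). The 5 casein genes had peaks in DIFF2 alone, as 5 of the 7 members did. Of 5 genes for lactose synthesis, 2 had a DIFF1 peak and 4 a DIFF2 peak, against 1 in UNDIFF1 and 0 in UNDIFF2. B4galt1, the galactosyltransferase that alpha-lactalbumin joins to form lactose synthase, had 2 DIFF1 and 10 DIFF2 peaks, against 1 in UNDIFF1 and 0 in UNDIFF2. Of 9 lactogenic regulators, 3 had a DIFF1 peak and 8 a DIFF2 peak, against 2 in UNDIFF1 and 1 in UNDIFF2. Prlr, the prolactin receptor, had peaks in every list, 8 in DIFF1 and 41 in DIFF2, against 3 in UNDIFF1 and 5 in UNDIFF2. Nr3c1, the glucocorticoid receptor, was the one with peaks in both DIFF lists and neither UNDIFF list. That is 1 of 9 where 14.2% of all genes had this pattern. Nr3c1, Prlr, Abcg2 and B4galt1 have long assigned sequence, 405.2, 386.1, 207.3 and 82.4 kb, beside a median of 49.6 kb over all protein coding genes. Over all protein coding genes 26.5% had a peak in DIFF1, 84.1% in DIFF2 and 52% in DIFF2 alone, against 14.1% in UNDIFF1 and 9.52% in UNDIFF2, so DIFF2 peaks prevail at genes in general.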

How the data were processed

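BMAL1 ChIP-seq was analysed in 4 HC11 cultures, 2 DIFF and 2 UNDIFF, from the sample labels. Cultures of 1 state carry no shared replicate numbers with the other. UNDIFF1 and UNDIFF2 carry the numbers 6 and 8 in the labels. The inputs entered only through the authors' values. Per the labels and the study's methods, the authors used FastQC 0.11.7, the Fastx toolkit, Bowtie2 2.2.9 on GRCm38 and HOMER 4.10 findPeaks per sample (fold over input and over local tags of at least 2, FDR under 0.01), and for 1 DIFF pair, not named in the methods, only part of the reads was used. The deposited lists give tags and normalized tag counts as signal, the focus ratio as a fraction, a findPeaks score, the fold over input, that over the surrounding tags and the clonal fold, all ratios, and p-values without adjustment, computed by the authors. Scores and folds were ranked within a list, since each list was called apart.

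Peak centres were assigned with 45756 curated RefSeq transcripts (release 108.20200622). In all, 0 peaks ran past a chromosome end. Overlaps (at least 1 bp) used bedtools 2.31.1. The tag totals are those implied by the deposited tags and the normalized tag counts, which HOMER scales to 10000000 tags. Where the deposited tags are scaled to the input, the totals are not the depth of the ChIP library. States were compared by the exact permutation test over cultures. The assignment was tested on simulated data. Alternatives were a fold of 4, a score of 24, equal lists, no soft-masked peaks, other transcripts or distances, and each culture left out. Python 3.11.15 was used with matplotlib 3.10.9, numpy 2.4.6, pyfaidx 0.9.0.4, scipy 1.17.1 and pandas 2.3.3. All 7 members are described, with all peaks of DIFF1 and, in DIFF2, those nearest the start site or of highest score in full. The 7 genes, the other gene lists and the tests were chosen with earlier results of these data known. The share of TG or GT steps (the higher of the strands) was added after the letters were seen.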

Additional observations from a re-analysis of the deposited data

How the results depend on the processing

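The DIFF mean stayed above the UNDIFF mean in the number and in the share of member peaks under every alternative run, at p = 0.33 to 1.0 in the exact permutation test. DIFF1 itself was level with the UNDIFF cultures in 2 of them: with equal lists DIFF1 had 0 peaks and DIFF2 had 1, and with the gene body only 0 and 7, against 0 in both UNDIFF lists. The number of member genes with a peak in both DIFF lists and neither UNDIFF list, 1 as reported, was 0 with equal lists of 5475 peaks and 0 with the gene body only, 2 with start sites of protein coding genes only (Xdh and Btn1a1), and 4 within 50 kb of a start site (Lalba, Ltf, Xdh and Muc1). The cause was not tested beyond what each rule counts. Leaving out each culture in turn gave differences of 1.585 to 4.585 in log2(peaks + 1) and of 1.24 to 1.462 per 10000 in share, and 1 to 6 genes, the highest without DIFF1. DIFF2 carried most of the count, which was 23 as reported: it fell to 12 peaks at a fold of 4, to 5 at a score of 24 and to 4 without soft-masked peaks, while DIFF1 had 2 peaks in each of these. The score is not adjusted for depth, so a score of 24 is not an equal limit across lists. The number of member peaks overlapping a peak of another list was 0 under every alternative run, and the share over all peaks was not computed. No paired analysis was possible because the cultures share no replicate numbers. Weaker sites than the lowest score in a list are not in it, and no peak at a gene does not show that it was unbound.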

Other observations

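Some member peaks of DIFF2 lay close together. At Xdh the peaks 10.2 and 9.62 kb upstream were 292 bp apart, and at Mfge8 those 44.7 and 43.4 kb upstream were 999 bp apart. With predicted transcripts added, Mfge8 had 3 DIFF2 peaks in place of 5 and Btn1a1 0 in place of 3.

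A share of TG or GT steps of 50% or more, counted anywhere in the peak, was found in 2 of the 23 DIFF2 member peaks, at Lalba and Ltf. In the whole lists 1.79% of DIFF2, 0.00% of DIFF1, 0.245% of UNDIFF1 and 0.00% of UNDIFF2 peaks reached that share. These values were looked up after the letters of the peaks had been read, and no test was made of them.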
